A study of Mus musculus with 9 samples.

Results

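Narrow coding promoter regions were the accessible regions under 2 kb in width whose center lay within 1 kb of the start of a protein-coding RefSeq transcript. They were selected on 2 measured values of the region list itself, the distance to the assigned transcription start site (TSS) and the width, and on the type of the assigned transcript. Of 17164 distinct regions in the list, 8765 lay within 1 kb of a coding TSS and 7893 of these were below 2000 bp. The other 872, at 2000 bp or wider, are called broad and serve as the comparison. The narrow regions were thus 90.1% of coding promoter regions, a share that the width limit fixes.

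The study asked how Isl1, a LIM-homeodomain factor of cardiac progenitors, and the chromatin remodeler Brg1 (encoded by Smarca4) shape chromatin opening in the early heart. ATAC-Seq, in which the transposase Tn5 inserts adapters into open DNA, was applied to dissected mouse pharyngeal mesoderm and heart at day 8.75 of development, when 6 somites are present. The 9 libraries formed 3 groups of 3, namely wild-type controls, Isl1-/- embryos, and Isl1Cre+/- embryos with both Brg1 alleles floxed (Brg1fl/fl). Isl1-Cre removes Brg1 only in cells that have expressed Isl1, so the other cells of the dissected tissue keep it. The values used here were 1 list of regions common to the 3 wild-type control libraries, with mm9 positions and neither a height nor a value for each library. The mutants were not analysed here, and the values carry no error between embryos.

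A promoter becomes accessible where nucleosomes are displaced from DNA around the TSS, and most active mammalian promoters lie in CpG islands, stretches rich in unmethylated CpG dinucleotides. Genes used by every cell typically have such promoters, and their activators (Ets factors, Nrf1, Sp and Klf zinc fingers, NF-Y, Yy1, Creb and Banp) recognize short words close to the TSS. Promoters of tissue-restricted genes more often lack CpG islands, and a part of them carries a TATA box, the word bound by TBP.

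To show these words in place, the following sequences were read from NCBIM37, the same build as mm9, from 120 bases before to 29 bases after the assigned TSS of 8 members, 5′ to 3′ on the sense strand. Each is the narrowest member with the named word at its most frequent position, and capitals mark every match to that word on either strand. Dbr1, which encodes the lariat debranching enzyme, lies at chr9:99476098-99476247 on the plus strand, Rpl13, a ribosomal protein gene, at chr8:125626130-125626279 (plus), and Mtfmt, the mitochondrial methionyl-tRNA formyltransferase gene, at chr9:65283469-65283618 (plus). Mrps22, a mitochondrial ribosome gene, lies at chr9:98502069-98502218 (minus), the kinase gene Mark4 at chr7:20043814-20043963 (minus), and Ndufa3, a respiratory complex I gene, at chr7:3568855-3569004 (plus). Gtpbp8 lies at chr16:44746447-44746596 (minus) and Tmem29 at chrX:146893664-146893813 (minus).
Dbr1 (Banp): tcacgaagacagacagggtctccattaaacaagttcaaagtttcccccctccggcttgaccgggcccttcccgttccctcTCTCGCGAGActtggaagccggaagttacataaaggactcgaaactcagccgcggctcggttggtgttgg
Rpl13 (Creb): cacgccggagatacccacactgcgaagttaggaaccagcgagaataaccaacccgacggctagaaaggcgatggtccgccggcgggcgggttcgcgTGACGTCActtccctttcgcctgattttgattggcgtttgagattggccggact
Mtfmt (Nrf1): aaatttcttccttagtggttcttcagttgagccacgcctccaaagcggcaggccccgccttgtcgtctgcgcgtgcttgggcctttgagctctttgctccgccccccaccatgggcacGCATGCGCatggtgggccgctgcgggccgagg
Mrps22 (Ets): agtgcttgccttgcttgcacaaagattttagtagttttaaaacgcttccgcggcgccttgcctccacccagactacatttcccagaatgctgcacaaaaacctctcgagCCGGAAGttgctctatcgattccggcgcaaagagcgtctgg
Mark4 (Sp/Klf): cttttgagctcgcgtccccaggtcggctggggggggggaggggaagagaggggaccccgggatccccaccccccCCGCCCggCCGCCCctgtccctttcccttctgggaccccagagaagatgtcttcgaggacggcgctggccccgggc
Ndufa3 (Yy1): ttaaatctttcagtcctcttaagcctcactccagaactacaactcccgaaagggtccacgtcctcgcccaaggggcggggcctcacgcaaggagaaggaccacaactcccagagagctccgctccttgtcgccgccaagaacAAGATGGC
Gtpbp8 (Znf143): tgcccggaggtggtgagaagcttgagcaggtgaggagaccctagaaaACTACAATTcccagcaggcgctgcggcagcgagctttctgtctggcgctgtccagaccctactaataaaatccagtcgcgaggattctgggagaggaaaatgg
Tmem29 (E2f): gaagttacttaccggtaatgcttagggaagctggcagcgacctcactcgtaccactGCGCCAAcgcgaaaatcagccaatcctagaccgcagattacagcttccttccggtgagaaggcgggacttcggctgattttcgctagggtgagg

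The matches sat at positions -40 to -33 in Dbr1, -24 to -17 in Rpl13, -2 to 5 in Mtfmt, -11 to -5 in Mrps22, 22 to 29 in Ndufa3, -73 to -65 in Gtpbp8 and -64 to -58 in Tmem29, with position 0 the first transcribed base. In Mark4 the match reached from -46 to -41, and the Mark4 region itself was centered upstream, at -436 bp, and did not hold the TSS. That region spans chr7:20044025-20044534, so the Mark4 sequence shown, with its marked matches, lies wholly outside the accessible region. The Banp word in Dbr1 overlaps its own reverse complement, and both were marked.

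Narrow regions were 1251 bp wide at the median (interquartile range 1062 to 1495 bp). Widths formed a single peak, with 25.6% of members from 1000 to below 1200 bp and 6.90% at 1800 bp or above. The limit at 2000 bp therefore fell in the falling part of a continuous distribution and did not separate 2 modes. The members nearest to it were Zadh2, Acvr1 (a Bmp receptor gene) and Edem1, each 1 bp under it, and the regions just beyond it were at Wbp4, Trim36 and Mbd5, each at 2000 bp. At the distance limit, the outermost members were at Crh (center 999 bp downstream of the TSS), the myogenic factor gene Myf6 (997 bp) and Slc26a5 (-992 bp), and the nearest regions left out were at Tshz2 (-1013 bp), Cd14 (1017 bp) and Dennd4b (-1021 bp). The narrowest members were at Grwd1 (504 bp), the splicing factor gene Slu7 (506 bp), Mark4 (510 bp), the neurotensin receptor gene Ntsr2 (511 bp) and Mtx2 (516 bp). For comparison, the 1126 regions between 1 and 10 kb from a coding TSS had a median width of 1041.5 bp.

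**Figure D1:**
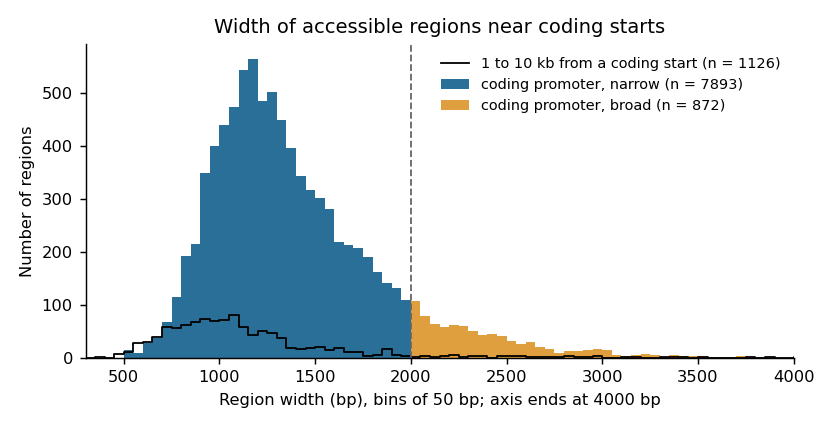
Width of regions on the x axis (bp, bins of 50 bp) and number of regions on the y axis, for narrow (blue) and broad (orange) coding promoter regions and for regions 1 to 10 kb from a coding TSS (black line), with the limit of 2000 bp dashed. Coding promoter regions form 1 continuous peak around 1251 bp, the median of the narrow class, and the limit cuts its right flank.

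Most narrow regions lay across the TSS. The position of the TSS could be placed on a strand for 7770 members, and the region held the assigned TSS in 98.4% of them. The exceptions were 124 regions that lay wholly to a side of it. From the TSS, members reached a median of 587 bp upstream (interquartile range 462 to 728 bp) and 637 bp downstream (508 to 823 bp). Centers lay within 100 bp of the TSS in 49.0% of members and within 250 bp in 83.7%. Every broad region held its TSS, which a width of 2000 bp and a center within 1 kb make nearly certain.

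Centers were shifted to the transcribed side. Leaving out 24 members centered exactly on the TSS, 4535 of 7869 (57.6%, 95% Wilson interval 56.5 to 58.7%) were centered downstream, and the share was above 50% on 19 of 20 chromosomes (19 autosomes and X; mean and SD 57.9 ± 4.82%; p = 4.01e-05 in a two-sided exact sign test). The median center was 29 bp downstream of the TSS. Broad regions were centered downstream in 61.0%, and the difference of -2.68 ± 7.69 percentage points per chromosome (mean and SD, n = 20) was not distinguishable from the spread between chromosomes (exact sign test adjusted over 9 features, p = 0.824). Chromosomes served as the units of these tests because the list has no replicates, so a p-value speaks of consistency across the genome and not across embryos.

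Centers were placed on the protein-coding transcripts of GENCODE in the same build. The center of 3045 members (38.6%) fell in an untranslated (UTR) exon, of 2632 (33.3%) outside any coding transcript, of 1292 (16.4%) in an intron and of 924 (11.7%) in a coding exon. Broad regions had their center in an intron more often, at 30.0%, and in a UTR exon less often, at 28.2%, and these shares were not tested.

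A divergent start, the TSS of another coding gene transcribed away on the opposite strand within 1 kb upstream, was found for 701 members (9.02%). Of the 701 regions, 676 (96.4%) contained both starts, which were a median of 140 bp apart (interquartile range 75 to 276 bp). The centers of divergent members lay a median of 10 bp upstream of the assigned TSS (-10 bp), compared with 34 bp downstream for the 7069 other members. The median was lower in divergent members on 20 of 20 chromosomes, by a mean of -40.5 ± 22.8 bp (divergent minus other, SD over 20 chromosomes). The upstream reach of divergent members had a median of 656 bp, against 582 bp in the others, and the downstream reach 635 bp against 637 bp. Median widths were 1303 and 1245 bp. The closest pairs of starts under a member were 1 bp apart at Zfp597 and Nat15 and at St7l and Capza1 (an actin capping protein gene), 2 bp at Atl1 and Map4k5, 3 bp at Slc7a6os and Prmt7, and 4 bp at the histidyl-tRNA synthetase genes Hars2 and Hars. No difference in the frequency of divergent starts was detected between narrow and broad regions, at 9.02% and 7.17%, with a difference of 1.74 ± 4.26 percentage points per chromosome (exact sign test, adjusted p = 0.130).

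**Figure D2:**
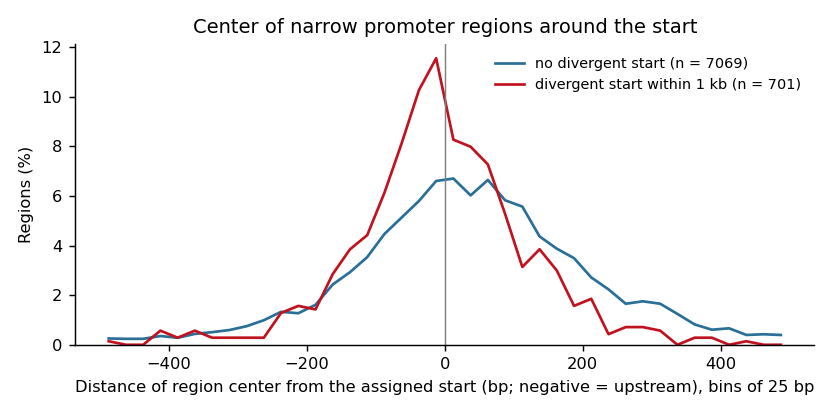
Distance of the region center from the assigned TSS on the x axis (bp, negative upstream, bins of 25 bp) and share of regions on the y axis (%), for narrow regions with (red, n = 701) and without (blue, n = 7069) a divergent coding start. The red curve is taller and peaks upstream of the TSS (median -10 bp), and the blue curve is broader and lies further downstream (median 34 bp).

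Members were rich in CpG dinucleotides, but less so than broad regions. In 500 bp centered on the TSS, median GC content was 64.2% (interquartile range 58.8 to 69.0%) in 7770 narrow and 68.8% (62.8 to 73.8%) in 865 broad regions, and was lower in narrow regions on 20 of 20 chromosomes (difference of the medians -4.88 ± 2.11 percentage points, mean and SD over chromosomes; exact sign test adjusted over 9 features, p = 4.29e-06). The median number of CpG dinucleotides was 8.20 per 100 bp compared with 9.80, lower on 19 of 20 chromosomes (exact sign test, adjusted p = 7.21e-05). The ratio of observed to expected CpG, which corrects for base content, was 0.81 compared with 0.84 and lower on 17 of 20 (exact sign test, adjusted p = 0.00387). With the window placed on the region center, the difference in this ratio was -0.017 and did not pass (exact sign test, adjusted p = 0.824).

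By a common division of promoters, 4603 members (59.2%) were of high CpG content (ratio above 0.75 and GC above 55%), 2494 (32.1%) intermediate and 673 (8.66%, interval 8.06 to 9.31%) low (ratio below 0.48). The low class held 5.09% of broad regions (interval 3.81 to 6.76%), and its share was higher in narrow regions on 16 of 20 chromosomes (exact sign test, adjusted p = 0.0152). This difference did not pass with 1 region per gene, at 3.24 percentage points (exact sign test, adjusted p = 0.148), or with windows on the region center, at 0.50 percentage points (adjusted p = 0.0621). The members of lowest CpG ratio were at Tex14, a germ cell gene, and at Clca4b, both with no CpG in 500 bp, followed by the complement gene C1rl (ratio 0.031), the interferon-induced GTPase genes Gbp9 (0.034) and Gbp4 (0.035), and Rassf9 (0.061). These 6 regions were between 928 and 1628 bp wide, within the range of the other members. The C1rl and Gbp9 regions were centered close to the TSS, at -5 and 13 bp, and the Clca4b region upstream of it, at -689 bp.

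Within the members, median widths were 1152 bp in the low-, 1188 bp in the intermediate and 1299 bp in the high-CpG class. A further region here means a region assigned to the same gene that is not itself a coding promoter region, so a second promoter region does not count. One was present for 37.7% of low-CpG members, compared with 22.7% and 20.5%. A divergent start was present for 1.34%, compared with 9.50% and 9.88%. Of the sequence words described below, those of Sp and Klf factors were found at 33.9% of low-, 64.5% of intermediate and 81.5% of high-CpG members, and the Ets word at 7.88%, 17.0% and 21.7%. The TATA box was found at 1.78%, 0.72% and 0.50%, and the Gata word at 9.21%, 4.17% and 2.13%. These are descriptions, without a test, and the classes differ in base content by construction.

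Narrow promoter regions lay at shorter genes in denser neighborhoods. Median gene length was 28518 bp for narrow and 68612.5 bp for broad regions, and the median distance to the nearest start of another coding gene was 23886.5 and 64542 bp. Both were lower in narrow regions on 20 of 20 chromosomes (exact sign test, adjusted p = 4.29e-06 each). A further region of the same gene, not counting coding promoter regions, was listed for 22.7% of narrow regions (interval 21.8 to 23.6%) and 46.9% of broad ones (interval 43.6 to 50.2%). This share was again lower on 20 of 20 chromosomes, by -22.1 ± 7.39 percentage points (mean and SD, exact sign test, adjusted p = 4.29e-06). A longer gene with more space around it can collect more assigned regions, and the part of length in this difference was not tested. In all, 7 of the 9 features compared passed the adjusted threshold of 0.05, of which 6 were lower and 1 was higher in narrow regions.

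Several of these features followed width within the narrow class. Members were divided by width into 4 groups of nearly equal size, from the narrowest (504 to 1061 bp) to the widest (1496 bp and above). In this order, median GC content was 60.8, 63.2, 65.0 and 67.2%, and the low-CpG share was 12.8, 9.87, 6.44 and 5.56%. Median gene length was 22277, 25516, 29006 and 41181 bp, and a further region was present for 16.0, 19.6, 23.0 and 32.2%. Each of these series moved in the direction of the broad class at every step, so for these features the limit of 2000 bp marks a point on a gradient. Other features did not move this way. The share with a divergent start was 6.74, 8.59, 10.3 and 10.5%, compared with 7.17% in broad regions. The share centered downstream was 56.3, 54.7, 58.7 and 60.6%. Rank correlations with width over members were weak, at 0.29 for GC content (n = 7770), 0.17 for gene length (n = 7237) and 0.14 for the distance to the nearest other start (n = 7770). The members of 1 list share its libraries and depth, and width also rises with depth, which is unknown here.

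To describe the sequence at the starts, 18 short words were searched on both strands in 300 bp centered on the TSS, except the TATA box, which was searched on the sense strand between -40 and -20. The words were GCATGCGC (Nrf1), CCGGAAG (Ets), GGGCGG (Sp/Klf), CCAAT (NF-Y), AAGATGGC (Yy1), TGACGTCA (Creb), CACGTG (Usf/Myc), TCTCGCGA (Banp), ACTACAATT (Znf143), GTTGCCA (Rfx), TTGGCGC (E2f), TATAAA (the box bound by TBP), TAATTA (homeodomain), CTAATG (Isl1-type), GGAATG (Tead), CAGCTG (bHLH), CTATTTATA (Mef2) and AGATAA (the word of Gata factors). Some can share bases, such as the Rfx or E2f word with the NF-Y word, and the TATA box with the Mef2 word. A match is a run of letters and not a bound site. A word was called different only where 2 tests over chromosomes both passed after adjustment over the 18 words, the exact sign test and an exact sign-flip permutation test of the mean difference. The second was added after seeing the data, because with about 43 broad regions per chromosome a rare word is often at 0 there and the sign test then leans toward the narrow class. By this rule 6 words were more frequent in narrow regions, 1 was less frequent and 11 were not called. By the sign test alone, 8 and 1 passed.

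The Ets word showed the widest difference. It was found at 1475 narrow starts (18.98%, interval 18.1 to 19.9%) and 63 broad starts (7.28%, interval 5.73 to 9.21%), and the share was higher in narrow regions on 20 of 20 chromosomes, by 11.6 ± 3.46 percentage points (mean and SD over chromosomes; exact sign test, adjusted p = 3.43e-05). Over all 45993 coding starts in GENCODE, which include several starts per gene, it was 10.7%. Across the 4 width groups it was 22.4, 21.3, 20.04 and 12.1%, so the step lay at the widest members. It passed the exact sign test in each of 9 alternatives of classes and windows. Written backwards, a word of the same bases but without the CpG, it was found at 6.15% of narrow and 4.74% of broad starts and did not pass (exact sign test, adjusted p = 0.250). Reversal also changes the CpG content of some other words, such as that of Nrf1, so backwards words are not matched for CpG.

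Nrf1, an activator of nuclear genes for mitochondrial proteins, had its word at 5.35% of narrow and 2.20% of broad starts (higher on 18 of 20 chromosomes, exact sign test, adjusted p = 0.00241). The word of the zinc finger factor Yy1 was at 5.77% and 3.47% (16 of 20, exact sign test, adjusted p = 0.0266). The NF-Y word was at 37.0% and 30.8% (16 of 20, exact sign test, adjusted p = 0.0266), the Rfx word at 3.60% and 1.62% (16 of 20, adjusted p = 0.0266), and the Znf143 word at 0.71% and 0.23%, the latter only 2 broad starts (16 higher and 2 lower, adjusted p = 0.0059). With the classes divided at 1500 bp in place of 2000 bp, Ets and NF-Y remained past the threshold of the exact sign test and the other 4 did not, with adjusted p between 0.0532 and 0.208. Over 9 alternatives of classes and windows, the sign test passed in 8 for Nrf1 and Znf143, 7 for NF-Y and 5 for Yy1 and Rfx. The Yy1 word written backwards also passed the exact sign test, at 0.39% of narrow and 0.12% of broad starts (adjusted p = 0.00656), and the backwards words of the other 4 did not. At such low shares the sign test leans toward the narrow class, as described above, so its pass decides little for the backwards word. The same limit holds for the Znf143 word, with 0.31 broad matches expected per chromosome at the narrow share. Its intervals overlapped (0.54 to 0.92% in narrow and 0.06 to 0.84% in broad regions). No share below 1% was simulated, so the Znf143 call is weak although both tests passed. Broad regions had a higher GC content, whose part in these differences was not tested. The NF-Y word written backwards moved the same way, at 17.4% and 14.1%.

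The Sp/Klf word was the exception. It was found at 71.9% of narrow and 80.0% of broad starts, lower in narrow regions on 18 of 20 chromosomes, by -7.92 ± 8.35 percentage points (exact sign test, adjusted p = 0.00241). Both shares were above the 45.3% of all coding starts. In windows on the region center the difference was 1.69 percentage points with no call (exact sign test, adjusted p = 0.566), so its direction holds at the TSS and not at the center of the region. The sign test passed in 5 of 9 alternatives of classes and windows, and not in windows of 150 and 500 bp.

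Several other words were less frequent at narrow starts than at all coding starts. The homeodomain word was at 1.22% of narrow starts, compared with 3.19% of all coding starts and 4.26% of the 1126 regions 1 to 10 kb away. The Isl1-type word was at 3.11%, compared with 5.39% and 7.10%, and at 2.89% of broad starts. The Gata word was at 3.40%, compared with 8.21% and 8.97%, the Tead word at 8.79%, compared with 12.3% and 17.5%, and the Mef2 word at 0.15%, or 12 starts, compared with 0.29% and no match in the regions further away. The bHLH word, at 16.1%, was close to the 17.6% of all coding starts. The TATA box was at 0.68% of narrow starts (53 starts, interval 0.52 to 0.89%), 1.39% of broad starts and 1.51% of all coding starts. The difference between narrow and broad regions was not called for any of these words in the windows of 300 bp. In windows of 500 bp the Gata word passed the exact sign test, with a difference of 3.03 percentage points (adjusted p = 0.00241). It also passed in windows of 150 bp (exact sign test, adjusted p = 0.0494) and with centers within 500 bp (adjusted p = 0.0304). The sign test alone called the homeodomain word (adjusted p = 0.0384), and the sign-flip permutation test did not (adjusted p = 0.0980). Starts overlap between the sets compared here, and base content differs between them, so these shares are descriptions.

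**Figure D3:**
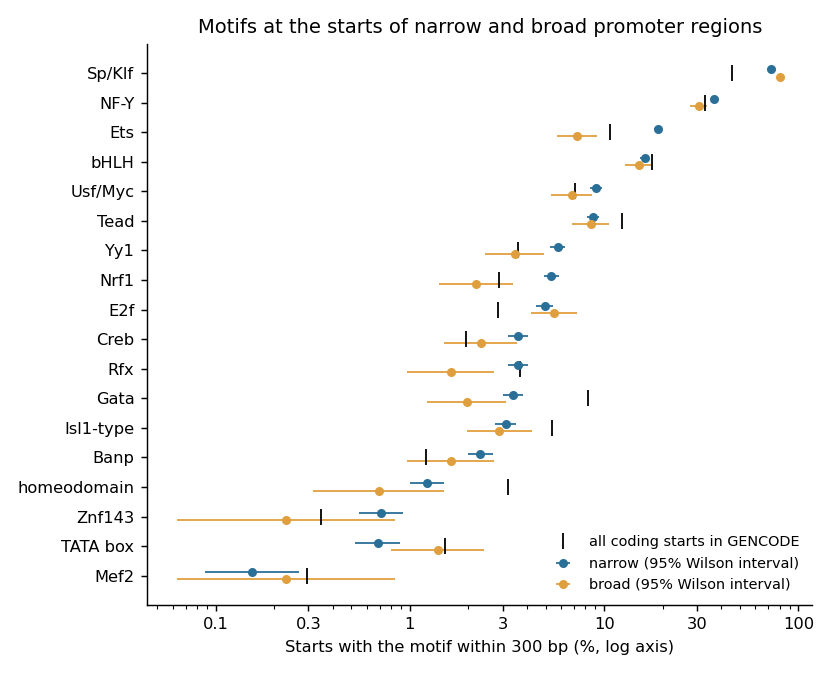
Share of starts with each word within 300 bp on a log axis (%), for narrow (blue) and broad (orange) regions with 95% Wilson intervals, and for all coding starts in GENCODE (black ticks). The Ets, Nrf1 and Yy1 points of the 2 classes are well apart, Sp/Klf is higher in broad regions, and homeodomain, Isl1-type, Gata and TATA box words are below all coding starts in both classes.

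Words took characteristic positions relative to the TSS. In bins of 10 bp over 7770 narrow starts, the Ets word was most frequent between -10 and -1, with 163 matches compared with a mean of 6.54 per bin in the flanks, 500 to 1000 bp away. The Nrf1 word peaked between 0 and 9 (60 matches, flank 1.87), the Creb word between -20 and -11 (31, flank 0.65), the Sp/Klf word between -50 and -41 (869, flank 51.0), the Banp word in the same bin (44, flank 0.36) and the NF-Y word between -70 and -61 (349, flank 105). The Ets and Nrf1 words thus lay at the TSS itself, as in Mrps22 and Mtfmt above, and the NF-Y word further upstream. The flanks have a lower GC content than the starts, so the ratio of peak to flank holds both position and base content.

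The Yy1 word was most frequent downstream of the TSS, between 20 and 29 (63 matches, flank 4.40), as in Ndufa3. Of its 462 matches in 300 bp, 78.1% had the sense orientation, compared with 49.3% for Nrf1, 52.0% for Ets, 48.8% for NF-Y and 55.5% for Sp/Klf. The TATA box was most frequent between -30 and -21 (49 matches, flank 25.6). The homeodomain word showed the opposite of a peak, with a flank level of 21.6 matches per bin and fewer in every bin plotted, the most being 17 between -300 and -291.

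**Figure D4:**
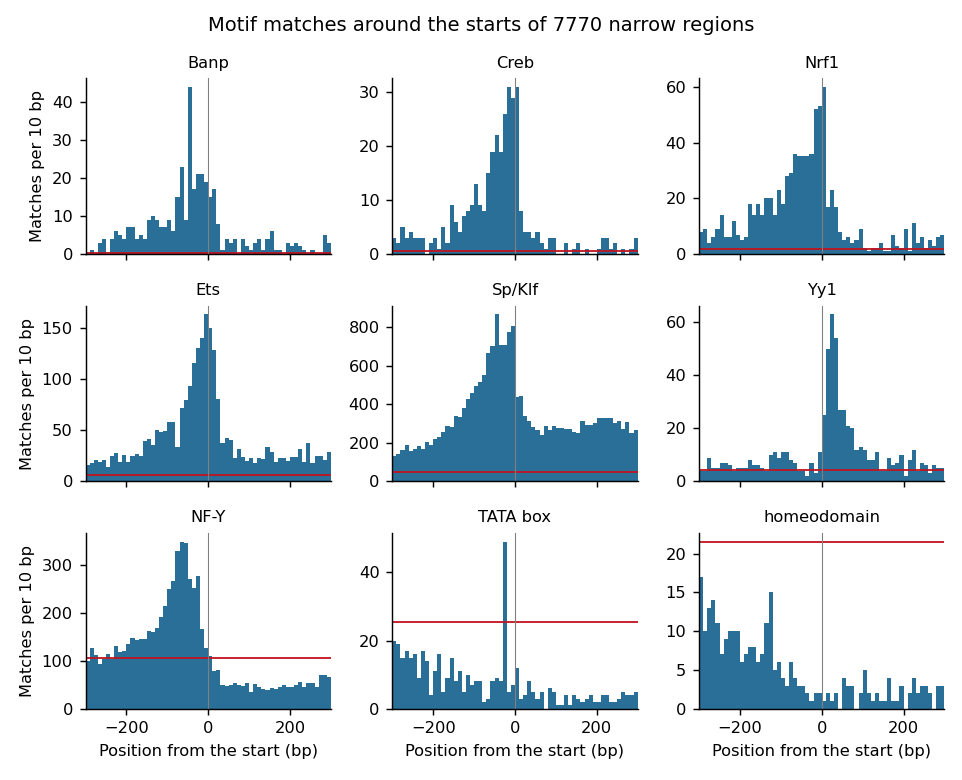
Matches per 10 bp on the y axis (number, each panel with its own scale) against position from the TSS on the x axis (bp), for 9 words at 7770 narrow starts, with the mean per bin 500 to 1000 bp away as a red line. Ets and Nrf1 peak at the TSS, Sp/Klf, Banp and NF-Y upstream, Yy1 downstream (20 to 29 bp), the TATA box in 1 bin (-30 to -21), and the homeodomain word is depleted around the TSS.

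Divergent members carried several of these words more often. The Ets word was at 28.4% of divergent and 18.1% of other members, the NF-Y word at 43.2% and 36.4%, the Yy1 word at 8.42% and 5.50%, and the Banp word at 3.99% and 2.14%. The TATA box was at 0.29% and 0.72%. These shares were not tested.

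The members were assigned to 7739 genes, of which 7696 were among 21031 coding genes of the RefSeq table, so 36.6% of coding genes had a narrow promoter region. A broad promoter region was assigned to 865 genes, or 4.11%, and 24 genes had both. A further 1827 genes had regions of other kinds and 10667 had none. The gene lists below are described against these shares, without a test. They were compiled by gene name, and a gene without a region in the list may still be open in some cells, since a region had to be found in each of the 3 libraries.

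Lists of gene families with general cell functions, whose use in each cell type was not measured here, stood above this background. In each of the 13 such lists the share with a narrow promoter region exceeded 36.6%, from 45.9% of 37 DEAD-box helicase genes to 77.8% of 36 tRNA synthetase genes and of 36 DNA replication genes. No gene had a broad promoter region in 6 of the 13 lists, namely the proteasome (29 of 49 genes narrow), the cytosolic ribosome (44 of 81), the mitochondrial ribosome (45 of 78), complex I (29 of 48), the tRNA synthetases (28 of 36) and the chaperonin and DnaJ genes (34 of 52). Among all genes with a coding promoter region, 10.1% had a broad one. The median width of the widest promoter region per gene was below the 1299 bp of all genes in 12 of the 13 lists, and lowest for the mitochondrial ribosome, at 1046 bp. The exception was the ubiquitin-conjugating enzymes, at 1336 bp, of which 4 of 27 promoter genes had a broad region. Among mitochondrial ribosome genes the members ran from 630 bp at Mrpl16 to 1837 bp at Mrpl41, among proteasome genes from 753 bp at Psmd12 to 1632 bp at Psme2, and among tRNA synthetase genes from 677 bp at Rars to 1896 bp at Eprs. The narrowest spliceosome member was Prpf8, a core component of the catalytic center, at 583 bp.

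The words of the preceding comparison were unevenly spread among these lists. At least 1 of the Ets, Nrf1 and Yy1 words was present at 27.5% of members assigned to coding genes, and the share was higher in each of the 13 lists, from 30.6% of chaperonin and DnaJ members to 60.0% of mitochondrial ribosome members. The NF-Y word, also called more frequent in narrow regions, lay on both sides of its share of 36.9% over all members. It ran from 28.6% of complex I members to 70.6% of DEAD-box helicase members. The Rfx and Znf143 words were not counted by list. The Ets word was at 19 of 45 mitochondrial ribosome, 12 of 25 spliceosome and 11 of 29 proteasome members, compared with 18.98% of all. Complex I differed, with the Ets word at 3 of 28 members, the Yy1 word at 7 of 28 and a divergent start at 11 of 28. No TATA box was found in 11 of the 13 lists, and the others had 1 each, among spliceosome and RNA polymerase members. The 2 of 367 members (0.54%) were close to the 0.69% of all members assigned to coding genes.

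**Figure D5:**
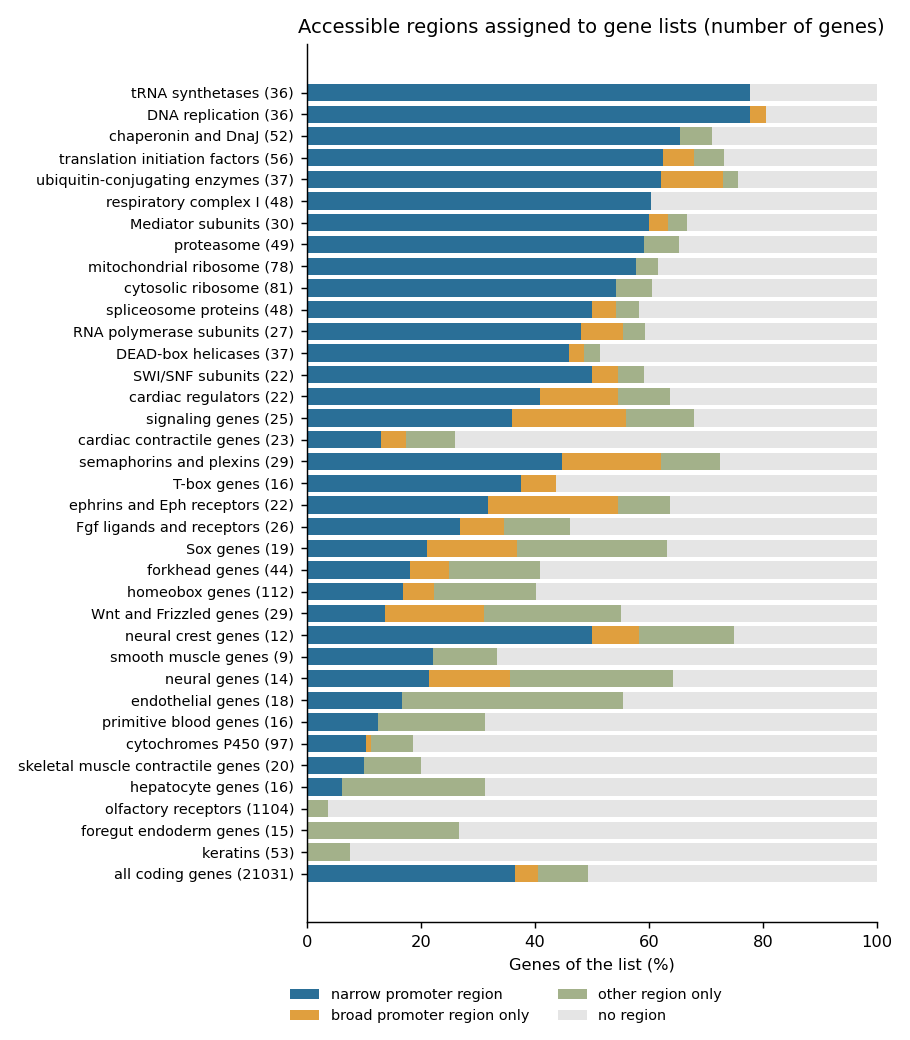
Share of the genes of each list (%, number of genes in parentheses) with a narrow promoter region (blue), only a broad one (orange), only other regions (green) or no region (grey), ordered by group: families with general cell functions, genes of the study, developmental families, tissue genes, and all coding genes. Blue exceeds the 36.6% of all coding genes in each of the top 13 lists, orange is widest among ephrin and signaling genes, and grey is nearly complete for keratins and olfactory receptors.

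Developmental gene families had a different makeup. Of 8 families, 2 exceeded 36.6%, the semaphorins and plexins (13 of 29 genes, 44.8%) and the T-box genes (6 of 16, 37.5%, but below the 42.2% of all genes when GENCODE starts replaced the assigned genes), and the Wnt and Frizzled genes were lowest (4 of 29, 13.8%). In each of the 8, the share of broad regions among promoter genes was above the 10.1% of all genes, from 14.3% of 7 T-box genes to 55.6% of 9 Wnt and Frizzled genes. Among promoter genes, a broad region was the commoner form only in the Wnt and Frizzled family. The homeobox genes had a narrow region at 19 of 112, a broad one at 6 and only other regions at 20. Homeobox members ran from 817 bp at Lhx3 to 1983 bp at Otx1, Sox members from 952 bp at Sox30 to 1922 bp at Sox9, and Fgf members from 765 bp at Fgf23 to 1724 bp at Fgf12. Of the 72 members in these families, 2 had an Ets word, 3 had an Nrf1 word and none had a Yy1 word. The shares over all members assigned to coding genes were 18.98%, 5.37% and 5.78%.

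Among 22 cardiac regulators, 9 had a narrow promoter region, 3 a broad one, 2 only other regions and 8 none. The region of Isl1 (chr13:117099328-117101036) was 1709 bp wide with its center 286 bp upstream of the assigned TSS (-286 bp), and Isl1 had 8 further regions. Tbx20, a T-box factor of the myocardium, had a region of 1630 bp centered at -24 bp and 3 further ones. Foxc1 had 1579 bp at 71 bp and 3 further regions, and Mef2a 1850 bp at -123 bp and 1 further. The remaining 5 had no further region. They were Hand2, a bHLH factor of the right ventricle (1264 bp at 256 bp), Gata5 (1330 bp at 200 bp), Tbx3 of the conduction system (1202 bp at -127 bp), the SRF cofactor gene Myocd (1343 bp at -59 bp) and Srf (1109 bp at -123 bp). The widths of the 9 ran from 1109 bp at Srf, a factor active in most cells, to 1850 bp at Mef2a.

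Cardiac contractile genes had few narrow promoter regions, 3 of 23 (13.0%). They were Actn2, which encodes alpha-actinin of the Z-disc (1369 bp, center 7 bp from the TSS), the calcium pump gene Atp2a2 (1099 bp, -151 bp) and the calcium release channel gene Ryr2 (1677 bp, 420 bp). No region of any kind was assigned to 17 of the 23. With GENCODE starts in place of assigned genes, 17.4% of the contractile genes had a region under 2 kb within 1 kb. No region was assigned to the 5 cardiomyocyte markers Tnnt2, Myl7, Actc1, Nkx2-5 and Myh6, although heart tissue was dissected. A region at such a locus can be assigned to another gene, so a missing assignment does not show closed chromatin there. Among markers of the second heart field and pharyngeal mesoderm, Isl1 had a narrow region, Fgf10 and Mef2c a broad one, and Fgf8 and Tbx1 none. Of 5 endothelial markers, 4 had a region of some kind, and only Kdr, a VEGF receptor gene, had a narrow one, of 1568 bp. No blood, foregut endoderm, neural crest or hepatocyte marker had a narrow region, and among 3 neural markers Sox1 had 1. Regions of other kinds were listed for 1 of 4 blood markers (Klf1) and 2 of 4 endoderm markers (Foxa2 and Sox17). The same held for 1 of 3 neural crest markers (Foxd3) and 2 of 3 markers of liver (Alb and Ttr), a tissue that was not dissected.

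Signaling genes had narrow promoter regions at 9 of 25, and 5 had a broad one. The Bmp pathway was represented by the receptor gene Bmpr1a (1518 bp, center at -280 bp), the common mediator Smad4 (1831 bp at 7 bp) and the inhibitor Smad7 (1803 bp at -264 bp). The Tgf-beta ligand gene Tgfb2 (1389 bp at 371 bp) and receptor gene Tgfbr2 (1687 bp at 257 bp, with 5 further regions), the Notch receptor gene Notch2 (1287 bp at 21 bp) and its coactivator gene Maml1 (1212 bp at -65 bp), the Hedgehog transducer gene Smo (1752 bp at 288 bp) and Fgfr2 (1043 bp at 472 bp) completed the list. In this group 5 of the 9 widths exceeded the 1495 bp of the upper quartile of all members.

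Subunits of the SWI/SNF complex, the remodeler that contains Brg1, had a narrow promoter region at 11 of 22 genes and a broad one at 1. Smarca4 itself had a region of 1139 bp (chr9:21420065-21421203) centered 21 bp from its TSS, and its paralog Smarca2 had 2, of 1082 bp and 1327 bp, at separate starts on chromosome 19. The members at Smarcc1 (1366 bp), Smarcd1 (1191 bp), Smarcd2 (1314 bp), Pbrm1 (1069 bp), Dpf2 (904 bp), Dpf3 (1292 bp) and Actl6a (1637 bp) were centered between -12 and 198 bp from the TSS, and the region of Ss18 (1787 bp) at 281 bp. Arid1a was the exception, with a region of 1210 bp centered well upstream, at -770 bp, and 2 further regions. At least 1 of the Ets, Nrf1 and Yy1 words was present at 41.7% of the 12 SWI/SNF members, compared with 27.5% of all members, 22.2% of 9 signaling members, 11.1% of 9 cardiac regulator members and none of 3 cardiac contractile members.

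Tissue lists lay below the background with 1 exception, the neural crest genes, at 6 of 12 (Ets1 at 1093 bp to Ednrb at 1938 bp). Endothelial genes had a narrow promoter region at 3 of 18 and only other regions at 7. Hepatocyte genes, from a tissue that was not dissected, had 1 of 16, at Apob (773 bp wide, centered 859 bp from the TSS). Olfactory receptors had 3 of 1104, cytochromes P450 had 10 of 97, skeletal muscle contractile genes had 2 of 20, and keratins and foregut endoderm genes had none of 53 and 15.

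A single narrow promoter region was assigned to 7593 genes, 2 to 138 genes and 3 to 8 genes. Members of the same gene were a median of 41747 bp apart (interquartile range 12732 to 138558 bp, 154 neighboring pairs). The 8 genes with 3 were the ankyrin gene Ank2, Anks1b, Fgf12, Oxr1, the phosphodiesterase gene Pde4b, the corepressor gene Runx1t1, Gm14440 and Tmem254a. The members of Ank2 were 1950, 1196 and 1572 bp wide, and those of Pde4b 1122, 1493 and 960 bp, each at a different start of the gene. Gm14440 and Tmem254a are listed at repeated copies on chromosomes 2 and 14, respectively, and reads of near-identical copies cannot be told apart, so these 6 regions are uncertain.

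The 19 autosomes held a mean of 3.07 ± 0.63 members per Mb (SD), with chromosome 14 lowest at 2.08 and chromosome 11 highest at 4.34, and X held 2.004. Per 100 coding genes, X with 36.0 was close to the autosomal mean of 36.2 ± 4.44. The median width on X was 1192 bp against an autosomal range of 1196 to 1318 bp, and 95.2% of its coding promoter regions were narrow, compared with 86.4 to 93.9% on the autosomes. Median GC content of X members was 60.6%, below the autosomal range of 62.4 to 66.0%.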

How the data were processed

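Chromatin accessibility was measured by ATAC-Seq in 9 libraries, 3 per genotype group as given in the titles, and the values used here came from the wild-type controls. Per the study's methods, the authors aligned paired reads to mm9 with Bowtie2, filtered them with SAMtools and Picard (1.136), called peaks per library with MACS, removed blacklisted peaks and kept regions found in the 3 replicates with bedtools (2.15). The deposited columns are start, end and distance to the TSS in bp, with a RefSeq transcript and a symbol. The tool that assigned genes is not given for these regions in the sources used here. The deposited values hold no count, height or replicate, so depth is unknown. No offset for Tn5 insertion is stated and peaks are extended by a fixed shift, so widths are not exact footprints, and they rise with depth. A common region carries the edges of 1 library.

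Rows with the same position were counted once (17432 rows, 17164 regions), and width was end minus start plus 1. Members and gene lists were chosen with earlier results of these data known. The TSS was rebuilt from region center, distance and strand. Strand came from GENCODE (7235 members) or the RefSeq table of GRCm38.p6 (535), which was used for names, strand and the coding gene set only, and 123 members without a strand were left out of sequence measures. Of 7237 members with a GENCODE start of the same gene, 4262 matched it exactly and 94.0% within 100 bp. Narrow and broad regions were compared by two-sided exact sign tests over 20 chromosomes with at least 5 regions per class, Benjamini-Hochberg adjusted over 9 features or 18 words, threshold 0.05. An exact sign-flip permutation test was added after seeing the data. Wilson intervals cover counting over regions. Tests were tried on simulated classes. For a word at the same 1% in both simulated classes, the sign test alone passed in 15 of 100 null draws and both tests in 1. Genes were named by rule: nearest to each limit (3), narrowest (5), lowest CpG ratio (6), most members (5, 8 with ties), closest divergent pairs (5), each member of the study lists, and the narrowest and widest of other lists. Lists matched gene symbols or synonyms. The result of 1 marker gene is not reported here. For the sequences shown, the narrowest member was taken whose word lay within 10 bp of the modal bin, with a GENCODE start within 5 bp and no annotated exon upstream. No column of values was left unmapped (0). Python 3.11.15, numpy 2.4.6, pandas 2.3.3 and scipy 1.17.1 were used.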

Additional observations from a re-analysis of the deposited data

How the results depend on the processing

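No paired analysis was possible because the list is 1 consensus of the 3 control libraries and has no value for any of them. Leaving out a library was impossible for the same reason. Depth is unknown, which limits widths and any statement on a gene not listed. Of 367 recomputed values, 296 kept their direction and side of the threshold, or stayed within 1.5 times a count or within the interval of a share. The share centered downstream ranged from 56.6 to 57.8% over 6 alternatives and passed in each (largest exact sign test p = 4.02e-04). Why values changed was not tested.

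The number of members ranged within 1.5 times. Features higher in narrow regions fell from 1 to 0 with 1 region per gene (low-CpG share 3.24 percentage points) and with windows on the region center (low-CpG share 0.503 percentage points, CpG ratio -0.0172). Dividing at 1500 bp reversed the divergent share (-0.819 percentage points). Words higher in narrow regions fell from 8 to 2 at a division of 1500 bp and to 2 with letters backwards. Words lower in narrow regions fell from 1 to 0 with starts within 100 bp of GENCODE, with windows of 150 bp, with windows on the region center and with letters backwards. Reversed differences, in percentage points, were -0.0869 (Banp) and -0.145 (Isl1-type) at 1500 bp, -0.161 (Tead) with autosomes only, -0.126 (Isl1-type), -0.677 (bHLH) and -0.0437 (Tead) in windows of 150 bp, and -0.196 (bHLH) in windows of 500 bp. In windows on the region center they were 1.69 (Sp/Klf), 0.562 (E2f), -0.165 (homeodomain), -0.907 (Isl1-type) and -0.740 (bHLH). With letters backwards they were -0.179 (Nrf1), -0.233 (Usf/Myc), -0.0770 (Znf143), 1.11 (E2f), -0.165 (homeodomain) and 0.0515 (Mef2). By the added sign-flip permutation test, Usf/Myc and homeodomain (adjusted p = 0.0980 each) lost their call. Differences past the threshold of the sign test only in an alternative were Gata at 500 bp (3.03), 150 bp (0.568) and with centers within 500 bp (1.76), Creb at 150 bp (1.26), on the region center (1.997) and backwards (0.387), and E2f at 500 bp (-1.75). Mef2 also passed with centers within 500 bp, as higher in narrow regions by count of chromosomes, although its pooled difference was -0.00304. With GENCODE starts in place of assigned genes, 42.2% of coding genes had a region under 2 kb within 1 kb, and the shares of the proteasome (72.9%), mitochondrial ribosome (72.4%) and tRNA synthetases (91.7%) moved beyond their intervals.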
